A study of Drosophila melanogaster with 12 samples.

Results

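The midguts of adult male Drosophila melanogaster were compared between flies in which dsx was targeted by RNA interference in enterocytes (dsxRNAi males) and control males. The comparison uses 6 of the 12 RNA sequencing libraries of the study, the 3 labelled as dsxRNAi males and the 3 labelled as control males, and all 9686 genes that passed the expression filter. Per the labels, dsxRNAi males carried y[1] v[1] / w[*] on the X, dsxRNAi / mex1-Gal4 on chromosome 2 and tub-Gal80ts / + on chromosome 3. Control males carried the same X entry, with mex1-Gal4 / + on chromosome 2 and UAS-GFP / tub-Gal80ts on chromosome 3. The X entry is also that of the females, although a male has no second X. The remaining 6 libraries are dsxRNAi and control females of the same genotypes, and they are used only to set the female value of a gene beside the male one. All flies were virgins, kept for 6 days at 18 degrees C and then for 4 days at 29 degrees C, and sampled as adults of 10 days. Control and dsxRNAi flies thus share the driver, the temperature-sensitive silencer and the temperature shift, and the dsxRNAi flies carry no UAS-GFP.

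dsx encodes a transcription factor at the end of the somatic sex determination pathway of the fly. Its transcript is spliced in a sex-specific way, so that male and female tissues make different proteins, and only some cells of the body express it. Enterocytes are the absorptive cells of the midgut, which secrete digestive enzymes, take up and store lipids and release antibacterial enzymes into the gut lumen. mex1-Gal4 is active in enterocytes, and tub-Gal80ts blocks Gal4 at the lower temperature and releases it at the higher one, so the hairpin RNA is made after the shift. The RNA was that of the whole midgut, with its stem cells, enteroendocrine cells, visceral muscle, nerves and trachea, so fewer cells of a type and less RNA per cell cannot be told apart.

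The 6 male libraries held 36212113 to 45068874 counts each. The 10 most abundant genes took 20.5% to 21.1% of the counts in dsxRNAi males and 16.5% to 17.5% in control males, and the TMM scaling factors ran from 0.865 to 0.935 and from 1.034 to 1.106 in the same groups. Levels are given as CPM, counts scaled to library size with these factors, in the order of the libraries 1 to 3. Nothing in the labels says that the 3 libraries of a group came from separate cultures, so p-values measure only the spread between these samples. The dsxRNAi flies differ from the controls in the transgenes and background of chromosomes 2 and 3 as well as in dsxRNAi. The background of the X and of chromosome 4 may differ too. An effect of the hairpin and an effect of the stock thus cannot be told apart in any comparison here.

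Control male 1 held RNA of the male accessory gland, an organ of the reproductive tract that makes seminal fluid proteins and is no part of the gut. It had 11561 counts over 51 accessory gland genes, 0.0277% of its total (exact 95% interval 0.02716% to 0.02817%, counting error only). The 3 dsxRNAi male libraries had 23, 20 and 13 such counts, control males 2 and 3 had 27 and 31, and the 6 female libraries had 6 to 18. The seminal protein gene Acp36DE had 1928 counts in control male 1, against 1 in each dsxRNAi male and 0 in control males 2 and 3. In all, 97 genes had at least 50 counts in control male 1 and more than 10-fold the count of every other library, together 36843 counts, led by CG9029 with 5228 counts and CG17097 with 4050 counts. Of these 97 genes 25 are on the accessory gland list, and 1 passed the expression filter. The accessory gland genes themselves did not pass it, and neither did any of 10 testis genes, which had 6 to 12 counts in dsxRNAi males and 9 to 14 in control males. Where leaving out control male 1 ends the male call of a gene described here or moves the count of a list by 1.5 times or more, this is said beside the result.

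**Figure D1:**
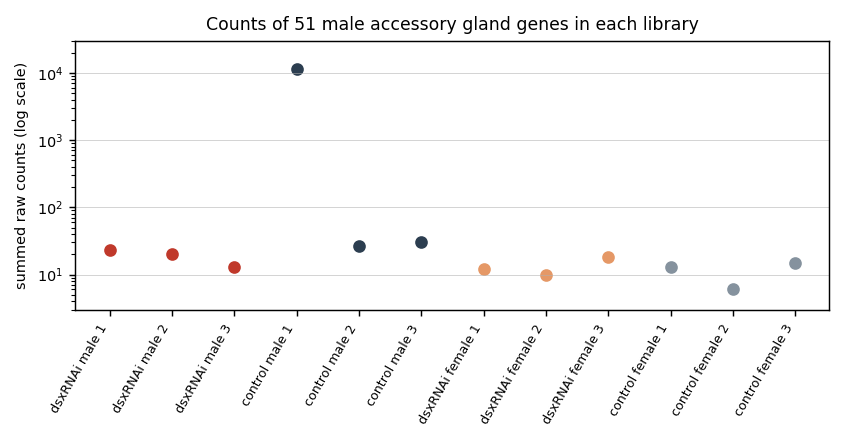
Summed raw counts of 51 male accessory gland genes (vertical axis, log scale) in each of the 12 libraries, 1 point per library. Control male 1 stands at 11561 counts and each of the other 11 libraries at 31 or fewer.

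dsx itself was lower in dsxRNAi males. It had 35.2, 43.1 and 41.2 CPM in dsxRNAi males, against 70.1, 59.1 and 53.2 CPM in control males (chromosome 3R, 7924323 to 7967408, build dm6). All 3 dsxRNAi libraries lay below all 3 controls, with a log2 change of -0.61 (SE 0.12, adjusted p = 0.00643). In females the change was -0.04, and the male and female changes did not differ at the threshold (difference -0.57, adjusted p = 0.172). The counts sum every isoform of dsx and every cell of the gut. The other 6 sex determination genes tested were not called, among them Sxl, the switch gene of the pathway, with 75.1, 69.5 and 79.4 CPM in dsxRNAi males, against 81.9, 82.9 and 81.8 CPM in control males (log2 -0.14, adjusted p = 0.345). Of 7 dosage compensation genes 0 were called by edgeR or DESeq2, and 0 had an unadjusted p under 0.05. Among them roX1, a noncoding RNA of that complex, had 1250, 1060 and 1130 CPM in dsxRNAi males, against 1270, 1300 and 1140 CPM in control males.

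The 6 tested genes described as direct targets of dsx in other tissues, the yolk protein genes Yp1 to Yp3 among them, were likewise not called in males by either tool (0 with an unadjusted p under 0.05). In females Yp2 and Yp3 were called lower (log2 -2.17, adjusted p = 0.0431, and -2.51, adjusted p = 0.025). The 3 tested marker genes of fat body had a median log2 change of -0.78 in females, with 0 called. The part of fat body RNA in the falls of Yp2 and Yp3 was not tested.

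The marker genes of the genotypes were read in the same way. yellow (y), a pigmentation gene whose allele the labels give for both groups, had 17, 11 and 10 raw counts in dsxRNAi males, against 0, 0 and 1 in control males, a count ratio of 46 with an exact interval of 7.77 to 1860 for counting error (adjusted p = 0.00447). The eye colour gene w, with 493, 517 and 376 raw counts in dsxRNAi males and 485, 543 and 589 in control males, was not called (adjusted p = 0.858). mex1, the enterocyte gene whose promoter drives Gal4, had 247, 256 and 212 CPM in dsxRNAi males, against 171, 194 and 203 CPM in control males, and missed the threshold (log2 0.33, adjusted p = 0.0516).

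In dsxRNAi males 780 genes rose (8.05% of those tested) and 638 fell (6.59%), 1418 in all (14.6%). These shares are the background for the counts of list members given below. A gene was called where the adjusted p of edgeR's quasi-likelihood test over all 9686 genes was under 0.05. Most changes were small: the median absolute log2 change of the called genes was 0.53, and 171 rose and 175 fell at least 2-fold (3.57% of genes tested). Only 60 and 61 changed at least 4-fold in the same directions. The 3 libraries of a group all lay on the same side of the other group for 38.6% of all genes tested and for 99.4% of the called ones. Leaving out control male 1, 2 or 3 gave 1059, 856 or 921 called genes, and an adjusted p under 0.01 gave 670.

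A set of genes was nearly off in one genotype and on in the other, in both sexes. Syt4, a synaptotagmin of vesicle release (3R, 7266065 to 7270809), had 0.0282, 0.0513 and 0.207 CPM in dsxRNAi males, against 28.2, 27.7 and 23.8 CPM in control males. That is a log2 change of -8.12 (SE 0.34, adjusted p = 1.44e-07), and in females it was -9.46. CG32302 (3L, 2268825 to 2269903) had 0.451, 0.0769 and 0.325 CPM in dsxRNAi males, against 31.9, 36.4 and 59.4 CPM in control males (log2 -7.24, SE 0.86, adjusted p = 0.000937; -5.46 in females). The P450 gene Cyp6w1 (2R, 6173684 to 6176195) had 0.564, 0.513 and 0.561 CPM in dsxRNAi males, against 22.5, 25.3 and 23.7 CPM in control males (log2 -5.44, SE 0.36, adjusted p = 7.08e-06; -4.68 in females). None of these libraries overlapped between the groups, and the lowest control library stood more than 20 CPM above the highest dsxRNAi library in each of these genes.

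Other genes fell less far but with little spread between libraries. CG14661, named Jhbp3 in the current annotation as a juvenile hormone binding protein gene (3R, 4953506 to 4955252), had 0.169, 0.333 and 0.502 CPM in dsxRNAi males, against 8.83, 9.83 and 8.13 CPM in control males (log2 -4.73, adjusted p = 7.62e-07). CG15169 (2L, 18991020 to 18992409) had 3.19, 3.39 and 3.25 CPM in dsxRNAi males, against 31.4, 31.6 and 33.9 CPM in control males (log2 -3.30, adjusted p = 1.64e-07). The antisense RNAs CR45044 and CR43767 fell by 2.95 and 2.80 on the log2 scale. All 4 of these genes were also called lower in females, with log2 changes from -3.12 to -2.77.

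Rises of the same kind were seen too. CG34215 (2R, 6831296 to 6831793) had 6.34, 6.93 and 3.49 CPM in dsxRNAi males, against 0.139, 0.0468 and 0.0663 CPM in control males (log2 6.01, SE 0.41, adjusted p = 2.61e-06; 5.34 in females). CG7227, a gene of the CD36 scavenger receptor family (2L, 7994388 to 7998151), had 20.6, 19.0 and 19.1 CPM in dsxRNAi males, against 0.510, 0.936 and 0.685 CPM in control males (log2 4.78, SE 0.23, adjusted p = 1.64e-07; 3.38 in females). CG30289 and CG43400 rose by 5.95 and 5.44 on the log2 scale, and by 4.66 and 2.45 in females. The smallest p of all belonged to CG32850, named Rnf11 in the current annotation (chromosome 4, 314923 to 331387), with 136, 132 and 133 CPM in dsxRNAi males, against 36.7, 35.9 and 35.7 CPM in control males (log2 1.89, SE 0.07, adjusted p = 3.74e-08; 1.91 in females). CG14500, chosen after its values were seen, had 331, 396 and 262 CPM in dsxRNAi males, against 54.4, 46.6 and 80.4 CPM in control males (log2 2.45, adjusted p = 8.23e-05; 2.82 in females).

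**Figure D2:**
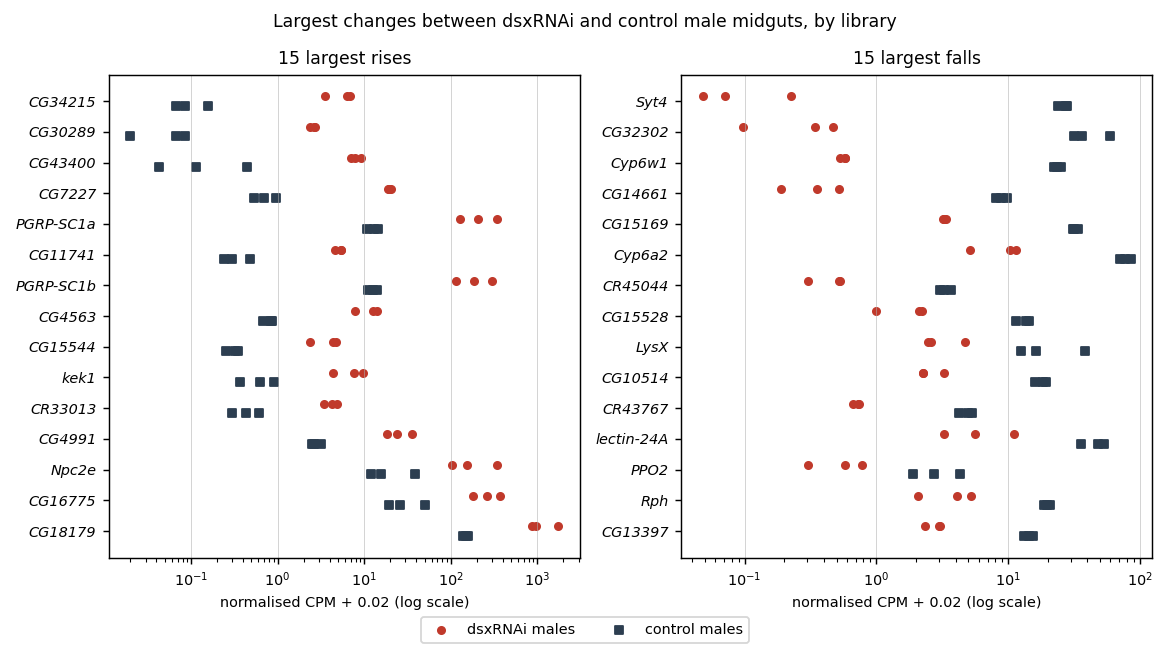
Levels of the 15 genes with the largest rise (left) and the 15 with the largest fall (right) among the called genes of the naming rule, as normalised CPM + 0.02 on a log axis. Each gene has 3 red circles for dsxRNAi males and 3 dark squares for control males, and the circles and squares of a gene do not overlap, which was part of the rule.

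Many of the largest male changes were found in females as well. Of the 1418 genes called in males 252 were called in females, which is 17.8% of the male calls and 75.2% of the 335 female calls, and 247 of the 252 moved in the same direction. The share called in females was 3.46% of all genes tested. Of the 53 genes that changed at least 8-fold in males 30 were called in females. The test of the difference itself, the male change minus the female change, called 78 genes (0.805%), of which 74 were called in males and 13 in females. In 70 of these 74 the absolute change was larger in males, but picking genes called in males favours that outcome. Leaving out control male 1, 2 or 3 gave 45, 34 or 36 genes, leaving out dsxRNAi male 1 or 2 gave 45 or 127, and DESeq2 gave 343.

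**Figure D3:**
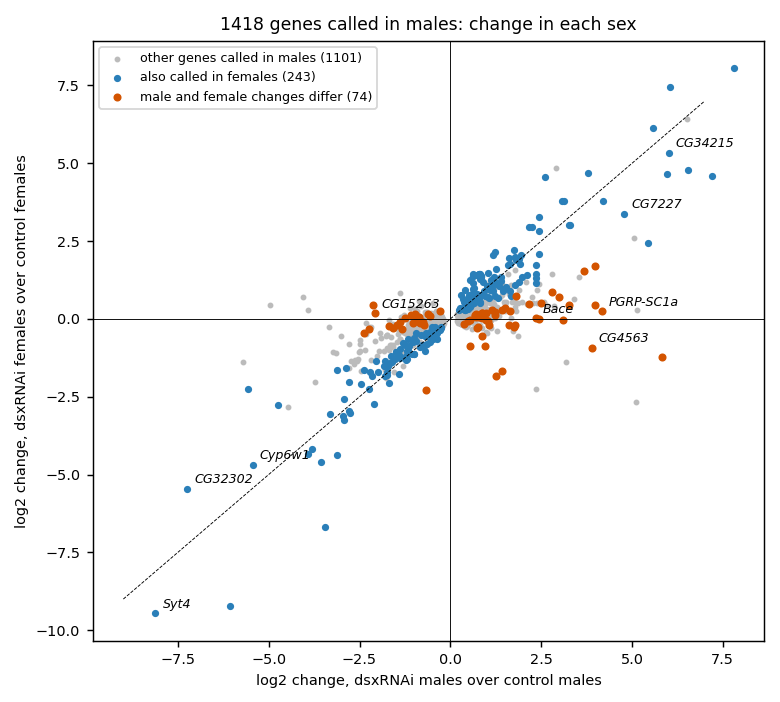
Log2 change of the 1418 genes called in males, with males on the horizontal and females on the vertical axis. Grey points are 1101 other genes, blue points 243 genes also called in females, and orange points 74 genes whose male and female changes differed; Syt4, CG32302, Cyp6w1, CG34215 and CG7227 lie far from 0 on both axes, while PGRP-SC1a and Bace lie near 0 on the female axis.

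Among the genes whose male change differed from the female one were secreted enzymes and carriers of the gut. The peptidoglycan amidase gene PGRP-SC1a (2R, 8709733 to 8710320) had 207, 346 and 129 CPM in dsxRNAi males, against 10.8, 14.4 and 12.9 CPM in control males, a 17.9-fold rise (log2 4.16, SE 0.33, adjusted p = 3.91e-05). In females it had 25.7, 22.1 and 18.7 CPM under dsxRNAi, against 18.3, 18.8 and 19.0 CPM in controls, and the changes differed by 3.92 (adjusted p = 0.00308). Its near-identical neighbour PGRP-SC1b gave a like pair of values (log2 3.98 in males and 0.46 in females), and reads may be split between the copies. Bace, an aspartic protease gene (2L, 8494893 to 8496307), had 15800, 15600 and 14600 CPM in dsxRNAi males, against 3840, 2910 and 2260 CPM in control males, a 5.11-fold rise (log2 2.35, SE 0.21, adjusted p = 2.08e-05). Its female libraries had 10700, 11300 and 10400 CPM under dsxRNAi, against 7840, 12800 and 11400 CPM in controls, so the dsxRNAi males stood above every female library and the control males below every one (difference 2.33, adjusted p = 0.00308). Bace lies within the hormone gene Dh31 on the same strand, and Dh31 had 20.6, 16.5 and 15.4 CPM in dsxRNAi males, against 18.0, 17.3 and 16.9 CPM in control males.

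Further genes of this kind were a lipid carrier, transporters and genes of little known function. NLaz, a lipocalin that carries lipids (2L, 1359837 to 1361821), had 268, 413 and 256 CPM in dsxRNAi males, against 80.5, 102 and 88.0 CPM in control males (log2 1.79, SE 0.17, adjusted p = 5.36e-05). In females its change was -0.18, and the difference was 1.97 (adjusted p = 0.00308). CG4563 (2R, 24451084 to 24453040) had 14.0, 12.5 and 7.86 CPM in dsxRNAi males, against 0.811, 0.655 and 0.840 CPM in control males (log2 3.89, adjusted p = 0.000349), while the female libraries ran from 4.71 to 8.18 CPM under dsxRNAi and from 6.77 to 20.2 CPM in controls (difference 4.82, adjusted p = 0.00386). CG5770, picked with its values known, had 83.4, 89.6 and 138 CPM in dsxRNAi males, against 18.3, 17.1 and 21.4 CPM in control males, and a female change of -0.01 (difference 2.46, adjusted p = 0.00257). The amino acid transporter gene slif (3L, 22881045 to 22893821) had 185, 152 and 183 CPM in dsxRNAi males, against 63.3, 57.0 and 45.7 CPM in control males (log2 1.65, adjusted p = 0.000167), and a difference of 1.40 from the female change (adjusted p = 0.0333).

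Falls that differed from the female change were fewer among the named genes. CG10178, named Ugt301D1 in the current annotation as a UDP-glucuronosyltransferase gene (2L, 18509560 to 18513512), had 10.1, 11.8 and 11.6 CPM in dsxRNAi males, against 29.8, 28.4 and 29.6 CPM in control males (log2 -1.39, SE 0.09, adjusted p = 1.16e-06). Its 6 female libraries lay between 12.5 and 15 CPM, below the control males and above the dsxRNAi males (difference -1.30, adjusted p = 0.00132). Rph, the fly rabphilin of vesicle traffic (X, 10749077 to 10757666), had 4.12, 2.05 and 5.23 CPM in dsxRNAi males, against 20.7, 18.9 and 19.7 CPM in control males, and 1.49 to 2.25 CPM in the female libraries (difference -1.93, adjusted p = 0.0327). CG15263, also picked with its values known, had 282, 448 and 249 CPM in dsxRNAi males, against 1290, 1340 and 1510 CPM in control males, and 164 to 293 CPM in the female libraries (difference -2.27, adjusted p = 0.00862). Of 26 named genes called for this difference 12 were called without each of the 6 male libraries in turn, among them PGRP-SC1a, PGRP-SC1b, Bace, NLaz, CG4563, CG5770, CG10178 and CG15263. The difference was lost for slif when dsxRNAi male 1 or 3 or control male 2 or 3 was left out, and for Rph when dsxRNAi male 1 or any control male was.

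Many genes of protein digestion rose in dsxRNAi males and none of those listed fell by edgeR. The Jonah genes encode chymotrypsin-like proteases secreted by enterocytes, and of 16 tested 10 rose and 0 fell (9 without control male 1 and 6 without control male 2; 8.05% and 6.59% of all tested genes), with a median log2 change of 0.89 against -0.01 over all tested genes. Their summed level was 100000 to 113000 CPM in dsxRNAi males, against 55500 to 70300 CPM in control males. Jon25Bi (2L, 4954279 to 4955144) had 3790, 5690 and 4010 CPM in dsxRNAi males, against 731, 639 and 578 CPM in control males (log2 2.79, SE 0.38, adjusted p = 0.000909). Jon66Ci (3L, 8391540 to 8392377) had 292, 357 and 291 CPM in dsxRNAi males, against 101, 106 and 140 CPM in control males (log2 1.44, adjusted p = 0.000722), and it was the only Jonah gene called in females (0.98). Jon65Aii had 1290, 1180 and 1030 CPM in dsxRNAi males, against 576, 487 and 431 CPM in control males, and its log2 change of 1.23 differed from the 0.11 in females (difference 1.11, adjusted p = 0.0365). That difference was not called when dsxRNAi male 1 or control male 2 or 3 was left out.

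Of 15 trypsins and related serine proteases 5 rose and 0 fell, with a median of 0.32. gammaTry (2R, 11349061 to 11349870) had 2610, 2870 and 3000 CPM in dsxRNAi males, against 1650, 1460 and 1470 CPM in control males (log2 0.88, adjusted p = 0.00365). Its near-identical neighbours deltaTry, CG30025 and CG30031 gave changes of 0.95, 0.89 and 0.94, and reads may be split among these copies. The trypsin-like protease gene CG18179 (3L, 9639271 to 9640140) had 862, 1750 and 964 CPM in dsxRNAi males, against 158, 140 and 150 CPM in control males (log2 2.99, adjusted p = 0.000112). Of 11 zinc carboxypeptidase genes, whose products trim amino acids from the ends of peptides, 3 rose and 0 fell. CG12374 (2R, 12762113 to 12763825) had 28500, 20400 and 23700 CPM in dsxRNAi males, against 11900, 11200 and 6640 CPM in control males (log2 1.29, SE 0.29, adjusted p = 0.0122).

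Sugar digestion changed in part. The amylase genes, whose products cut starch, rose: Amy-p (2R, 17118636 to 17120303) had 18300, 27900 and 21300 CPM in dsxRNAi males, against 13800, 12300 and 13500 CPM in control males (log2 0.77, SE 0.16, adjusted p = 0.00804). Amy-d, a near-identical copy, gave the same log2 change of 0.77. Of 10 maltases, which split sugars at the brush border, 0 rose and 0 fell by edgeR (3 and 1 at an unadjusted p under 0.05), although 1 rose and 3 fell without dsxRNAi male 2 and 1 rose without dsxRNAi male 3. By DESeq2 2 rose and 1 fell. The abundant maltase gene Mal-A1 had 12700, 20200 and 12800 CPM in dsxRNAi males, against 19000, 19000 and 18200 CPM in control males, so dsxRNAi male 2 stood apart from the other libraries of its group (log2 -0.30, adjusted p = 0.248). Of 6 lysosomal alpha-mannosidase genes 3 rose, but 0 when dsxRNAi male 2 or control male 2 or 3 was left out, 2 when dsxRNAi male 1 or control male 1 was, and 1 with no expression filter. Among them LManV had 3990, 5490 and 3910 CPM in dsxRNAi males, against 2420, 1960 and 1710 CPM in control males (log2 1.14, adjusted p = 0.0231), with adjusted p up to 0.0903 when a library was left out. Of 13 glycolysis genes 2 rose and 0 fell, with 1 rising when dsxRNAi male 2 or any control male was left out, and also with no expression filter or with males fitted alone. Among them the hexokinase gene Hex-C had 26.9, 20.2 and 25.6 CPM in dsxRNAi males, against 12.5, 10.2 and 12.4 CPM in control males (log2 1.05, adjusted p = 0.00233).

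Lipid genes that rose include lipases, a droplet coat protein and sterol uptake genes. Of 11 neutral lipases 4 rose and 0 fell (8 rose without dsxRNAi male 3), and all 4 are adjacent on 3R. CG17192 (27017180 to 27018287) had 1390, 1320 and 1360 CPM in dsxRNAi males, against 232, 218 and 133 CPM in control males, a 6.97-fold rise (log2 2.80, SE 0.28, adjusted p = 0.00011). CG6295 had 4130, 5180 and 4210 CPM in dsxRNAi males, against 2180, 2050 and 1510 CPM in control males (log2 1.24, adjusted p = 0.00139). These genes lie on the opposite strand within RYa-R, and the strand setting of the counting is not given in the sources used here. Lip4, an acid lipase gene (2L, 10527572 to 10531778), fell: it had 1.13, 1.69 and 3.54 CPM in dsxRNAi males, against 6.72, 9.22 and 10.1 CPM in control males (log2 -2.04, adjusted p = 0.00264; -1.34 in females).

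Of 12 genes of lipid droplets and triglyceride storage 3 rose and 1 fell. bmm, the lipase that mobilises stored triglyceride (3L, 14776496 to 14786412), had 175, 208 and 193 CPM in dsxRNAi males, against 101, 67.9 and 86.0 CPM in control males (log2 1.18, adjusted p = 0.00402; 0.89 in females, adjusted p = 0.0435). Lsd-1, a perilipin on the droplet surface (3R, 23763857 to 23766662), had 39.2, 41.9 and 58.9 CPM in dsxRNAi males, against 17.5, 12.4 and 9.04 CPM in control males (log2 1.85, adjusted p = 0.0049). Seipin, which shapes forming droplets, rose by 0.61, and CG1941, of the diacylglycerol acyltransferase family that makes triglyceride, fell by 0.59. Of 10 fatty acid synthesis genes 0 were called by edgeR or DESeq2 (1 had an unadjusted p under 0.05, and 1 fell without dsxRNAi male 2), and the desaturase gene Desat1 had 359, 344 and 386 CPM in dsxRNAi males, against 334, 302 and 264 CPM in control males (log2 0.27, adjusted p = 0.124).

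Of 13 fatty acid oxidation genes 4 rose and 0 fell, with 2 rising when dsxRNAi male 2 or any control male was left out. The peroxisomal acyl-CoA oxidase gene Acox57D-d (2R, 21389405 to 21392439) had 172, 157 and 137 CPM in dsxRNAi males, against 72.1, 68.1 and 61.6 CPM in control males (log2 1.21, adjusted p = 0.00106). In the Niemann-Pick sterol genes 2 of 9 rose and 1 fell. The number that rose was 1 without control male 2 and with males fitted alone, and the fall of Npc2b was lost when dsxRNAi male 1 or 3 or any control male was left out. Npc1b, needed for sterol uptake from food (X, 20934869 to 20939503), had 370, 391 and 273 CPM in dsxRNAi males, against 110, 117 and 137 CPM in control males (log2 1.51, SE 0.25, adjusted p = 0.00326). Npc2e (3R, 10053332 to 10054348) had 156, 340 and 103 CPM in dsxRNAi males, against 12.1, 15.6 and 38.6 CPM in control males (log2 3.18, SE 0.67, adjusted p = 0.0142), and its call was lost without control male 2.

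The lipid carriers rose in part, 3 of 8 (1 without control male 3), with GLaz, a lipocalin like NLaz, and fabp, a fatty acid binding protein, rising by 0.66 and 0.70 on the log2 scale. In females GLaz was also called higher (log2 0.7, adjusted p = 0.029), and fabp was not called (log2 0.33, adjusted p = 0.5). Of 16 sugar and amino acid transporters 3 rose and 0 fell (2 rose when dsxRNAi male 1 or control male 1 or 2 was left out). Beside slif, the glutamate transporter gene Eaat1 (2L, 9333567 to 9341925) had 277, 318 and 298 CPM in dsxRNAi males, against 184, 185 and 138 CPM in control males (log2 0.82, adjusted p = 0.00935; 0.76 in females). Gr64f, a sugar taste co-receptor gene (3L, 4035799 to 4037575), had 1.24, 1.46 and 1.21 CPM in dsxRNAi males, against 0.0695, 0.211 and 0.177 CPM in control males (log2 3.07, adjusted p = 0.000982; 3.80 in females). It was 1 of 4 called among 27 odorant binding and chemosensory receptor genes. Of the 27 genes 2 rose and 2 fell (0 or 1 fell when any male library was left out). Each share was 7.41%, near the 8.05% higher and 6.59% lower of all tested genes.

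Several lysozyme genes and the PGRP-SC genes of the gut lumen rose, and PGRP-LC, a receptor gene of the Imd pathway, fell. Of 6 digestive lysozyme genes, whose products cut bacterial cell walls, 4 rose and 1 fell. LysB (3L, 1207371 to 1207981) had 51, 76.3 and 43.6 CPM in dsxRNAi males, against 14.8, 13.2 and 10.3 CPM in control males (log2 2.15, adjusted p = 0.000168). LysD had 208, 314 and 209 CPM in dsxRNAi males, against 76.5, 76.8 and 59.8 CPM in control males (log2 1.78, adjusted p = 0.000312). LysX fell (log2 -2.80, adjusted p = 0.0272), a call that was lost when any dsxRNAi male or control male 3 was left out. The LysB to LysE genes are close copies within the span of mwh, so reads may be split or shared.

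Of 11 peptidoglycan recognition protein genes 3 rose and 2 fell, and 1 fell when any dsxRNAi male or control male 2 or 3 was left out, with RLE scaling, with either other expression filter and with males fitted alone. Besides PGRP-SC1a and PGRP-SC1b, PGRP-SC2 rose, with 1140, 1980 and 1330 CPM in dsxRNAi males, against 671, 619 and 624 CPM in control males (log2 1.22, adjusted p = 0.00689). Of 2 genes named after their values were seen, PGRP-LB was not called (log2 0.34, adjusted p = 0.139) and PGRP-SA fell (log2 -1.12, adjusted p = 0.049). PGRP-LC, a receptor of the Imd pathway, fell by 0.41 on the log2 scale (34.8, 36.3 and 35.3 CPM in dsxRNAi males, against 43.2, 47.4 and 51.1 CPM in control males, adjusted p = 0.00627). PGRP-LE of the same list, also named with its values known, was not called (log2 0.07, adjusted p = 0.617). Of 11 Imd pathway genes 0 were called by edgeR (3 at an unadjusted p under 0.05), and of 6 antimicrobial peptide genes 0 (2 at an unadjusted p under 0.05), although leaving out any library other than control male 2 gave calls among the peptide genes. Rel, the transcription factor of that pathway, had 213, 237 and 145 CPM in dsxRNAi males, against 142, 160 and 238 CPM in control males, so the groups overlapped. By DESeq2 1 Imd pathway gene and 1 antimicrobial peptide gene rose.

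Of 25 genes of the peritrophic matrix and mucins, which line the gut, 3 rose and 2 fell (0 fell without dsxRNAi male 1, 1 without dsxRNAi male 2 or control male 3, and 4 by DESeq2). That is 12% and 8%, against 8.05% and 6.59% of all tested genes. The mucin gene Muc68E (3L, 11967343 to 11972979) had 2270, 2590 and 2720 CPM in dsxRNAi males, against 1120, 1230 and 1200 CPM in control males (log2 1.09, adjusted p = 0.000129; 0.94 in females). Peritrophin-15a, which binds chitin (2L, 8395665 to 8396096), had 538, 515 and 529 CPM in dsxRNAi males, against 261, 215 and 167 CPM in control males (log2 1.30, adjusted p = 0.000351; 0.68 in females). The metal transporter gene Mvl (3R, 21051383 to 21060800) had 270, 185 and 210 CPM in dsxRNAi males, against 102, 111 and 94.2 CPM in control males (log2 1.12, adjusted p = 0.000206), and of 13 metal handling genes it rose and MtnB, a metallothionein gene, fell (log2 -1.34, adjusted p = 0.0156). The fall of MtnB was lost when dsxRNAi male 1 or 3 or control male 1 or 3 was left out and with males fitted alone, and 2 genes rose without dsxRNAi male 1. Of the metal handling genes 7.69% rose and 7.69% fell, near the shares of all tested genes.

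**Figure D4:**
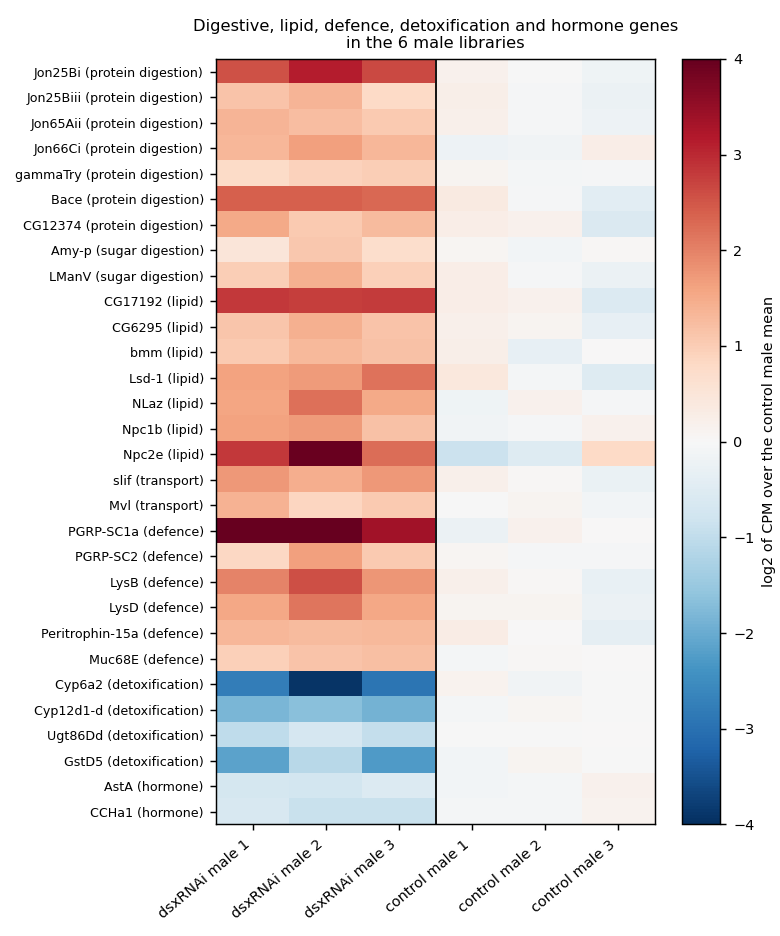
Log2 of the normalised CPM over the control male mean for 30 named genes (rows, with their group) in the 3 dsxRNAi male libraries (left of the black line) and the 3 control male libraries (right of it). Red is above and blue below the control mean, and colours end at 4 in either direction. The rows are a choice among the named genes, so their colours do not describe whole lists. The digestive, lipid, transport and defence genes shown are red in all 3 dsxRNAi libraries. The detoxification and hormone genes shown are blue in them. Called genes of the same lists also moved the other way, among them Lip4 and PGRP-LC, which fell, and Cyp6a20 and gce, which rose.

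Detoxification genes moved in both directions, and more of them fell. Of 73 P450 genes 6 rose and 15 fell (8.22% and 20.5%, against 8.05% and 6.59% of all tested genes), with a median of -0.18. Cyp6a2, whose overexpression is tied to insecticide resistance (2R, 6779749 to 6781491), had 11.4, 5.16 and 10.3 CPM in dsxRNAi males, against 85.8, 71.3 and 77.7 CPM in control males (log2 -3.13, SE 0.33, adjusted p = 0.000282; -1.65 in females). Cyp12d1-d (2R, 11123658 to 11125647) had 54.1, 60.7 and 52.3 CPM in dsxRNAi males, against 184, 205 and 190 CPM in control males (log2 -1.79, adjusted p = 0.000315; -1.35 in females), and its near-identical copy Cyp12d1-p fell by 1.49. Cyp6a20 rose, with 76.6, 74.2 and 68.1 CPM in dsxRNAi males, against 36.3, 35.0 and 35.0 CPM in control males (log2 1.04, adjusted p = 7.08e-06; 1.48 in females).

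Of 34 glutathione transferase genes 3 rose and 5 fell (3 fell when dsxRNAi male 1 or 3 or control male 3 was left out, and 8 when dsxRNAi male 2 was). The shares were 8.82% and 14.7%, against 8.05% and 6.59% of all tested genes. GstD5 (3R, 12375733 to 12376572) had 7.61, 15.6 and 7 CPM in dsxRNAi males, against 30.9, 36.3 and 33.3 CPM in control males (log2 -1.73, adjusted p = 0.0022). GstD5 was also called lower in females (log2 -1.5, adjusted p = 0.0141). Of 15 genes on the list of UDP-glucuronosyltransferases 2 rose and 5 fell, but 1 or 2 fell when any male library was left out, and 2 with no expression filter. The number that rose was 0 when control male 2 or 3 was left out and 1 when any other male library was. Ugt86Dd (3R, 11126597 to 11128328) had 221, 278 and 230 CPM in dsxRNAi males, against 444, 441 and 448 CPM in control males (log2 -0.87, SE 0.13, adjusted p = 0.00077), with a female change of -0.01.

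Of 12 heat shock genes 4 fell and 0 rose, and these are the 4 tested copies of the Hsp70B cluster on 3R. Hsp70Bb had 71.2, 86.2 and 78.6 CPM in dsxRNAi males, against 375, 391 and 338 CPM in control males (log2 -2.22, SE 0.11, adjusted p = 1.64e-07). Hsp70Ba, Hsp70Bc and Hsp70Bbb fell by 1.99, 1.81 and 1.74, and all 4 were called lower in females (-1.70 to -1.84). The copies are near-identical, so reads may be split between them, and the other 8 heat shock genes, Hsp70Aa and Hsp70Ab of the second cluster among them, were not called.

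Part of the genes of respiration and of ribosomes rose, by small amounts, while proteasome genes were not called. In the respiratory chain list, which includes ATP synthase, every one of 64 genes had a positive log2 change (median 0.34) and 40 rose, against 8.05% of all tested genes. The number was 25 when dsxRNAi male 1 was left out, and 32, 17 or 21 when control male 1, 2 or 3 was. ND-13B of complex I had 58.5, 61.7 and 54.5 CPM in dsxRNAi males, against 37.7, 37.7 and 35.6 CPM in control males (log2 0.65, SE 0.08, adjusted p = 0.000284). Of 71 mitochondrial ribosomal protein genes 67 had a positive change, with a median of 0.23, and 26 rose. Leaving out dsxRNAi male 1 or 2 gave 14 or 16, and leaving out control male 1, 2 or 3 gave 22, 13 or 12. mRpL24 (2L, 4944256 to 4945361) had 44.5, 45.9 and 42.4 CPM in dsxRNAi males, against 31.9, 32.3 and 30.4 CPM in control males (log2 0.49, adjusted p = 0.000175). In females 0 respiratory chain genes and 1 mitochondrial ribosomal protein gene were called higher. No respiratory chain or mitochondrial ribosomal protein gene was called for a difference between the male and the female change. The small rises of these lists are those after TMM scaling, whose factors were lower in dsxRNAi males. Before any scaling, that for library size included, all 72 mitochondrial ribosomal protein genes listed, tested or not, summed to 49687 to 58348 raw counts in dsxRNAi males, against 56464 to 59138 in control males. All 81 respiratory chain genes listed, tested or not, summed to 410622 to 520274 raw counts, against 438752 to 464911.

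Of 80 cytoplasmic ribosomal protein genes 79 had a positive log2 change, with a median of 0.29, and 25 rose. Leaving out dsxRNAi male 1 gave 8, leaving out control male 1, 2 or 3 gave 11, 7 or 8, and DESeq2 gave 45. RpL39 of the large subunit (2R, 24061853 to 24062431) had 476, 387 and 409 CPM in dsxRNAi males, against 295, 274 and 280 CPM in control males (log2 0.58, adjusted p = 0.00244; -0.08 in females). Myc, the transcription factor that drives ribosome production (X, 3373159 to 3391697), had 122, 90.7 and 111 CPM in dsxRNAi males, against 83.9, 79.1 and 77.8 CPM in control males (log2 0.42, SE 0.10, adjusted p = 0.0106). In females its change was -0.16, and the difference missed the threshold (0.59, adjusted p = 0.0704). Of 19 genes in the list of Myc partners and ribosome biogenesis 6 rose, a number that depended on single libraries. It was 1, 13 or 1 when dsxRNAi male 1, 2 or 3 was left out, and 3, 1 or 1 when control male 1, 2 or 3 was. Of 34 proteasome genes 0 were called by edgeR or DESeq2 (1 at an unadjusted p under 0.05; median 0.03), with 126, 143 and 132 CPM of Rpn2 in dsxRNAi males, against 131, 134 and 136 CPM in control males. Of 20 cell cycle and replication genes 1 rose and 0 fell, 5 had a positive log2 change, and the median was -0.45. The gene that rose was the mitotic kinase gene aurB, with 2.88, 3.49 and 3.54 CPM in dsxRNAi males, against 1.51, 1.47 and 2.34 CPM in control males (log2 0.89, adjusted p = 0.0357; 1.19 in females). Its call was lost when any male library other than control male 3 was left out.

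Of 19 tested transcripts of the mitochondrial genome 4 rose (10 by DESeq2). mt:ND2 of complex I had 52.2, 44.2 and 38.8 CPM in dsxRNAi males, against 25.0, 23.8 and 24.8 CPM in control males (log2 0.88, adjusted p = 0.000968). In females mt:ND2 fell by 0.54 (adjusted p = 0.0421), so the sexes moved in opposite directions (difference 1.42, adjusted p = 0.00311).

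Hormone and signalling genes moved in small numbers. Of 13 peptide hormone genes of enteroendocrine cells, the secretory cells of the gut, 5 fell and 0 rose (3 fell when dsxRNAi male 1 or 3 or control male 3 was left out and with no expression filter, and 2 when dsxRNAi male 2 or control male 1 or 2 was). With RLE scaling, without robust dispersion, with males fitted alone and by DESeq2 1 also rose. AstA, which encodes allatostatin A (3R, 24760530 to 24765071), had 29.6, 28.9 and 33.0 CPM in dsxRNAi males, against 45.1, 45.7 and 54.3 CPM in control males (log2 -0.66, SE 0.08, adjusted p = 0.000195). CCHa1 (3R, 14092504 to 14096835) had 14.5, 12.3 and 12.1 CPM in dsxRNAi males, against 21.6, 21.3 and 25.1 CPM in control males (log2 -0.81, adjusted p = 0.00054). Tachykinin (Tk) and NPF, named after their values were seen, were not called, with 107, 95.5 and 97.9 CPM of Tk in dsxRNAi males, against 124, 114 and 113 CPM in control males (log2 -0.23, adjusted p = 0.127). All 14 hormone genes of the list, tested or not, together stood at 589 to 662 CPM in dsxRNAi males, against 749 to 785 CPM in control males. All 10 genes of enteroendocrine identity and peptide processing, tested or not, stood at 483 to 523 CPM in dsxRNAi males, against 565 to 596 CPM in control males. The 9 tested ones had a median log2 change of -0.23, the same as that of the tested hormone genes. Of these 9 genes 3 fell, svr, 7B2 and Pal2, all of peptide processing, by 0.42, 0.48 and 0.42 on the log2 scale (1 fell when dsxRNAi male 2 or 3 or control male 1 or 3 was left out). Their part in the fall of the hormone genes was not tested.

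Of 18 genes of the ecdysone and juvenile hormone response 1 rose and 3 fell (5.56% and 16.7%, against 8.05% and 6.59% of all tested genes). gce, a juvenile hormone receptor gene (X, 15297766 to 15319074), had 79.7, 72.9 and 84.2 CPM in dsxRNAi males, against 48.2, 51.1 and 50.8 CPM in control males (log2 0.66, adjusted p = 0.00113). The ecdysone-induced factor genes Eip93F, Eip74EF and Hr3 fell by 0.53, 0.43 and 1.37 on the log2 scale. Of 13 insulin and TOR genes 1 rose and 3 fell (0 fell when dsxRNAi male 2 or 3 or control male 2 was left out, and 1 when control male 3 was). That is 7.69% and 23.1%. Ilp3, an insulin-like peptide gene, had 55 raw counts over the dsxRNAi males against 1 over the control males, a normalised ratio of 66.6 with a counting interval of 11.5 to 2680 (adjusted p = 0.00054), and it was also higher in females (adjusted p = 0.000153). In the EGF receptor and JAK-STAT list 1 of 16 rose and 3 fell (6.25% and 18.8%). The ligand genes spi and Krn and the inhibitor gene sty fell by 0.42, 0.36 and 0.51, and the call of Krn was lost without dsxRNAi male 1 or control male 3. kek1, an inhibitor of the EGF receptor, had 9.58, 4.33 and 7.62 CPM in dsxRNAi males, against 0.347, 0.608 and 0.884 CPM in control males (log2 3.54, SE 0.89, adjusted p = 0.0284). Its call was lost when any male library other than dsxRNAi male 2 was left out, and with no expression filter.

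**Figure D5:**
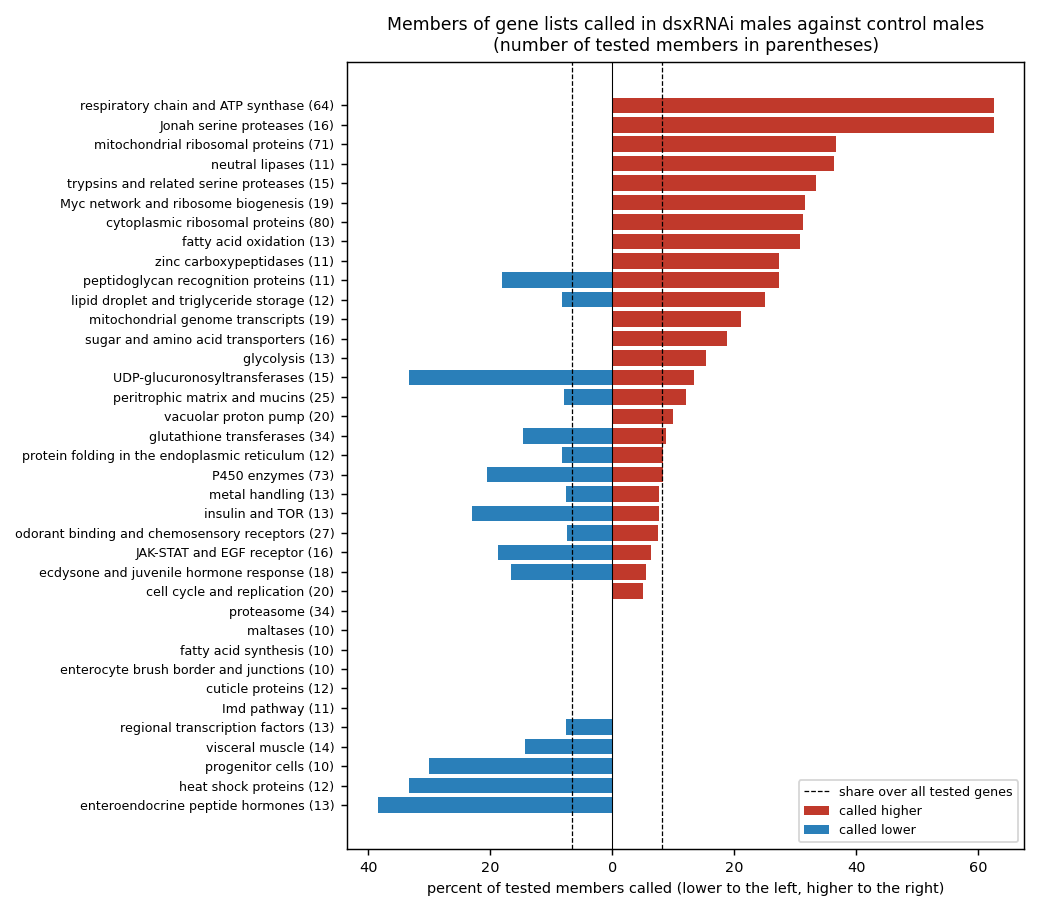
Percent of the tested members of each gene list called higher (red, to the right) and lower (blue, to the left) in dsxRNAi males, for lists with at least 10 tested members; dashed lines give the shares over all tested genes, 8.05% higher and 6.59% lower. The respiratory chain (40 of 64) and the Jonah proteases (10 of 16) reach farthest to the right and the peptide hormones (5 of 13) farthest to the left.

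Marker genes of several other cell types had lower summed levels in dsxRNAi males. Of 10 tested progenitor cell genes 3 fell (1 when dsxRNAi male 1 or control male 3 was left out, and 2 when dsxRNAi male 2 or control male 1 or 2 was). The summed level of all 11 listed, tested or not, was 99.2 to 129 CPM in dsxRNAi males, against 144 to 179 CPM in control males. The neuronal genes stood at 16 to 19.4 CPM in dsxRNAi males, against 21.6 to 24.6 CPM in control males, and elav fell by 0.54 (adjusted p = 0.00904). The hemocyte genes stood at 4.62 to 6.56 CPM in dsxRNAi males, against 9.10 to 15.8 CPM in control males, and 1 of 4 fell, PPO2, a call lost when dsxRNAi male 2 or 3 or control male 3 was left out. The Malpighian tubule genes stood at 104 to 114 CPM in dsxRNAi males, against 129 to 133 CPM in control males. Of 5 genes 2 fell, Irk2 and NtR, the fall of NtR being lost when dsxRNAi male 1 or 2 or control male 3 was left out. Irk2 had 1102, 1349 and 1116 raw counts in dsxRNAi males, against 2093, 2158 and 2464 in control males. The rest of the list, ClC-a, Irk3 and Uro, named after their values were seen, was not called (log2 -0.03, 0.51 and -0.59). No progenitor, neuronal, hemocyte or tubule marker was at 0 in all 6 male libraries. Their part in the falls of the hormone and signalling genes was not tested.

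Visceral muscle genes summed to 2840 to 2980 CPM in dsxRNAi males, against 2840 to 2890 CPM in control males, with 2 of 14 falling (1 without control male 3). Trachea genes summed to 19.3 to 25.3 CPM in dsxRNAi males, against 23.6 to 25.5 CPM in control males. Of 4 trachea genes 1 fell, trh, a transcription factor gene (log2 -0.65, adjusted p = 0.0234), a call lost when dsxRNAi male 1 or 2 or control male 1 or 2 was left out and with males fitted alone. Fat body genes summed to 1.10 to 2.13 CPM in dsxRNAi males, against 0.950 to 1.24 CPM in control males. Genes of the enterocyte brush border and junctions summed to 3820 to 4360 CPM in dsxRNAi males, against 3890 to 4530 CPM in control males, and of 10 tested 0 were called by edgeR (1 had an unadjusted p under 0.05) and 1 rose by DESeq2. Myo61F, a myosin of the brush border, had 1690, 1550 and 1610 CPM in dsxRNAi males, against 1460, 1410 and 1480 CPM in control males (log2 0.16, adjusted p = 0.216). Each of the 10 genes had counts in all 6 libraries. The vitamin transporter gene Smvt had 40, 47 and 162 raw counts in dsxRNAi males, against 157, 82 and 118 in control males.

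The called genes lay on all large chromosome arms. The labels give the X as the same in both groups, although y, which lies on it, was called between the male groups. On the X 10.8% of 1590 tested genes were called in males and 0.692% in females, against 14.2% to 18.7% in males and 3.29% to 5.52% in females on the arms of chromosomes 2 and 3. Some called genes stood side by side. Of 1392 called genes placed on the arms 85 lay in 25 runs of at least 3 adjacent tested genes that moved the same way, 16 runs of rises and 9 of falls. Besides the protease, lysozyme, lipase and Hsp70B clusters above, these included a run of 5 genes on 3R from eca to Unc-115a, which rose by 0.40 to 0.56 in males and were all called in females. Another run of 5 genes on 3R (22464985 to 22488110) held Pebp1, chosen after its values were seen, a phosphatidylethanolamine-binding protein gene with 2110, 3120 and 2280 CPM in dsxRNAi males, against 650, 533 and 396 CPM in control males (log2 2.25, adjusted p = 0.000377). On the X, ssp7, CG15199 and CG15202 fell together by 2.19 to 2.32 (11139762 to 11143755). Of these CG15199, also picked with its values known, had 20.3, 7.26 and 28.3 CPM in dsxRNAi males, against 90.7, 89.2 and 85.9 CPM in control males, and its call was lost when dsxRNAi male 1 or 2 or any control male was left out.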

How the data were processed

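RNA of whole midguts, 200 ng per library, was made into poly-A selected, directional, paired-end libraries with reads of 100 bp, per the labels' protocols. The deposited table holds raw read counts for 17558 gene rows in 12 libraries, which the submitters' processing notes give as made with TopHat2 2.0.11 on dm6 and featureCounts. How strand was set, which annotation was counted and whether rows were filtered is not given in the sources used here. Gene rows without a symbol, 171 in all, hold 2.17% of the counts. All 12 libraries, of 36212113 to 45068874 counts, were fitted together with edgeR 4.0.16 in R 4.3.3 as 4 group means, with TMM scaling, the default expression filter at a minimum count of 10 (9686 genes kept, with a median of 638 counts per gene and library) and robust quasi-likelihood dispersion. Every adjusted p is that of edgeR's quasi-likelihood test with Benjamini-Hochberg adjustment over the 9686 genes, for 3 contrasts: males, females, and the male minus the female change. Intervals cover counting error only. An exact permutation test of 3 against 3 libraries cannot go below 0.1 and was not used.

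Genes were named by a rule: dsx and the sex determination genes, the genotype genes, the 15 largest rises and 15 largest falls among called genes whose groups do not overlap and whose log2 CPM averages 1 or more, the 10 smallest p, up to 4 called members per list, and 2 abundant members of lists without a call. Others are said to be named after their values were seen. The members and the 60 lists were chosen with earlier results of these data known. Summed levels and summed counts of a list cover all its members, tested or not. Gene positions come from Ensembl release 115 on the dm6 assembly. Alternatives were RLE scaling, TMM without the 100 most abundant genes, other filters, males alone, no robust dispersion, a replicate block, DESeq2 1.42.0, stricter thresholds, and leaving out each male library. Figures were drawn with matplotlib 3.10.9.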

Additional observations from a re-analysis of the deposited data

Results flagged for a closer look

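Control male 1 was set apart by 11561 counts of accessory gland genes. The dsxRNAi males had 13 to 23 such counts, and control males 2 and 3 had 27 and 31. None of these genes passed the expression filter with all libraries. Without control male 2, however, 1 of them was called lower, and with no expression filter those with a count were fitted too. The part of these counts in the results was not tested. Of the 1418 genes called with all libraries, 1012 were also called without control male 1. Without control male 2 or 3 the number was 827 or 879.

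Of the 26 named genes whose change in males differed from that in females, 23 come from the naming rule, and CG5770, CG15263 and CG5506, with differences of 2.46, -2.27 and 1.80, were picked with their values known. For the 23 the changes differed by the test of the difference itself (edgeR, adjusted p from 0.00132 to 0.0464). The male minus female log2 difference was 3.92 for PGRP-SC1a, 3.52 for PGRP-SC1b, 4.82 for CG4563, 2.33 for Bace and 1.97 for NLaz. Differences of 2.3 for CG11741, 1.07 for CG15170, -1.3 for CG10178 and 1.42 for mt:ND2 were also called without each male library in turn. Of the transporter genes, slif gave 1.4 and CG4991, a predicted amino acid transporter, gave 2.82. CG4991 had 36.1, 18.2 and 24 CPM in dsxRNAi males, against 2.59, 2.48 and 3.12 CPM in control males. Among the digestive enzymes the difference was 2.28 for CG18179, 1.11 for Jon65Aii, 1.93 for CG17192 and 1.24 for CG6296. The lysozyme genes LysB and LysE gave 1.68 and 1.98. CG16775 gave 3.14, with 262, 372 and 179 CPM in dsxRNAi males, against 19.4, 25.7 and 49.8 CPM in control males. CG15544 gave 2.16, Rph -1.93, Ugt86Dd -0.86 and RpS15Ab 0.54. The mitochondrial transfer RNA mt:tRNA:Trp-TCA gave 3.08, at levels under 1 CPM in all male libraries. The difference of CG17192 was lost when any male library was left out, those of CG4991, CG15544 and Ugt86Dd without 5 of the 6, those of slif, Rph, CG16775, CG6296, LysB and LysE without 4, those of CG18179, Jon65Aii and RpS15Ab without 3, and that of mt:tRNA:Trp-TCA without control male 3. Control male 1 was among the libraries for CG4991, CG15544, Ugt86Dd, Rph, CG16775, CG6296, LysB, CG18179 and RpS15Ab. With no expression filter the differences of CG17192, CG4991, CG16775, CG18179, LysB and LysE were lost, and with RLE scaling that of Ugt86Dd.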

How the results depend on the processing

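None of the 168 named genes called in males changed its direction under an alternative that gave it a value. An adjusted p under 0.01 left 670 genes, 391 higher and 279 lower, and a log2 change of at least 1 left 346, 171 higher and 175 lower. Leaving out each male library in turn gave 856 to 1195 called genes (468 to 732 higher, 388 to 463 lower), of which 827 to 1047 were among the 1418. The other scalings, filters, dispersion and fit samples gave 1264 to 1527 called genes and DESeq2 gave 1793. The male minus female change was called for 34 to 127 genes when a male library was left out and for 343 by DESeq2. Of 168 named called genes 22 to 32 lost the call without a library, 9 with no expression filter, 6 with males alone and 0 by DESeq2. With the replicate number as a block 1452 genes were called, 4 named genes lost the call, and the male minus female differences of CG17192, CG4991, CG16775 and CG6296 were lost. The labels say nothing of what a number shares, and deviations of same-numbered libraries correlated at -0.05, 0.01 and 0.05. The accessory gland share of control male 1 was 0.0268% of the TMM-scaled total. Genes with few counts, such as Ilp3, are limited by depth.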
